A study of Mus musculus with 17 samples.

Results

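The genes described here carry out the synthesis, vesicle loading, re-uptake and breakdown of catecholamines, measured in primary neuroblastomas of TH-MYCN mice. They are Th, Ddc, Dbh, Pnmt, Gch1, Slc18a1, Slc18a2, Cyb561, Slc6a2 and Maoa, 10 of 18193 named genes. Their probe sets were those annotated to the symbol of 1 member alone, 22 of 34945 probe sets with a single gene symbol, and each gene was represented by its probe set of highest mean over the tumors. TH-MYCN mice carry a human MYCN transgene under the rat tyrosine hydroxylase promoter, so the transgene is expressed in the cells that make catecholamines. The tumors came from the abdomen of hemizygous transgenic mice of both sexes on a 129SvJ background. All 17 tumors form 1 group of this genotype, named below by the submitters' numbers from mad548 to mad565, with no normal tissue and no treatment arm. The labels give neither sex, age nor weight for a tumor. Each tumor was measured on 1 Affymetrix whole-genome mouse array, so no error within a tumor is known and every spread or p-value below refers to differences between tumors. Values are log2 expression values after robust multi-array averaging (RMA), on which a step of 1 is a doubling.

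Catecholamines are made from tyrosine in sympathetic neurons and in chromaffin cells of the adrenal medulla. Tyrosine hydroxylase (Th), the rate-limiting enzyme, works with a tetrahydrobiopterin cofactor whose synthesis starts with GTP cyclohydrolase (Gch1), and aromatic amino acid decarboxylase (Ddc) then gives dopamine. Dopamine is pumped into vesicles by the vesicular monoamine transporters (Slc18a1, typical of chromaffin cells, and Slc18a2, typical of neurons) and is turned there into noradrenaline by dopamine beta-hydroxylase (Dbh), for which cytochrome b561 (Cyb561) supplies electrons across the vesicle membrane. Phenylethanolamine N-methyltransferase (Pnmt) makes adrenaline in chromaffin cells, the noradrenaline transporter (Slc6a2) takes released amine back up, and monoamine oxidase A (Maoa) breaks it down. Neuroblastomas arise from this sympathoadrenal lineage and are known for releasing catecholamine products.

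The upstream sequences of Th, Dbh and Slc18a2 are shown. Th was chosen because the promoter of its rat counterpart drives the transgene, but the window below is that of the mouse gene. Dbh and Slc18a2 were chosen as the members that varied most closely with Slc18a1. The sequences are the 250 bases before the annotated start in RefSeq, build GRCm38.p6, written 5′ to 3′ on the strand of the gene. Entries for 6 of the 10 members were matched. Capitals mark the motif matches on either strand among the letters searched, which were TGACGTCA (cyclic AMP response element), TGANTCA (AP-1), CACGTG (E-box), GGGCGG (GC box), TATAAA (bound by the TATA-binding protein), GCGGGGGCG (Egr) and ATTA (the core bound by homeodomain factors), and no match overlaps another in these windows.
Th, chr7:142899996-142900245, minus strand: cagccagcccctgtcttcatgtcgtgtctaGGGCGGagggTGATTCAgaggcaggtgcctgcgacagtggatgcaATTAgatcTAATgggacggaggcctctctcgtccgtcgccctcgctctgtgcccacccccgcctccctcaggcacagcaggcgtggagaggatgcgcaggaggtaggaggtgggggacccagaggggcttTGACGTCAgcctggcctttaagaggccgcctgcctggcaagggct
Dbh, chr2:27165257-27165506, plus strand: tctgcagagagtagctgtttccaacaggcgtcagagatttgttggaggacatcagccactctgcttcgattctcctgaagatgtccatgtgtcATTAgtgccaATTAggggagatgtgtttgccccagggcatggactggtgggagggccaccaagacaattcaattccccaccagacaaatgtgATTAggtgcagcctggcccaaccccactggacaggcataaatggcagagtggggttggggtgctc
Slc18a2, chr19:59260628-59260877, plus strand: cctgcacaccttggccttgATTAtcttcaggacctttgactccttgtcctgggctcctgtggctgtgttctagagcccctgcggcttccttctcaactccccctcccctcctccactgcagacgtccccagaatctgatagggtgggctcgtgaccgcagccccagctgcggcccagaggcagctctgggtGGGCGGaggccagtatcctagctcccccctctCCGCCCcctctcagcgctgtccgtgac
The Th window holds TGACGTCA starting 45 bases before the start, TGATTCA at 210 bases, GGGCGG at 220 bases and 2 ATTA cores. Over 32851 promoter windows of the same length, TGACGTCA was found in 1.55%, TGANTCA in 6.75%, CACGTG in 6.02%, GGGCGG in 32.7%, TATAAA in 12.4% and GCGGGGGCG in 2.57%. The Dbh window holds 3 ATTA cores, a number that 17.3% of windows reach, and no match to the other letters. The Slc18a2 window holds GC boxes 59 and 27 bases before the start and 1 ATTA core, which 54.9% of windows have. A match is only a description of the letters in the window.

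The arrays hold 45037 probe sets other than controls, array medians lay between 6.28 and 6.51, and the median SD over the tumors of all 18193 genes was 0.19. Set against the tissue label, the lineage regulators Hand2, Isl1 and Phox2a averaged 12.76 ± 0.21, 13.04 ± 0.24 and 10.36 ± 0.44, whereas Hand1 and Tfap2a averaged 6.12 ± 0.27 and 6.18 ± 0.16 (SD, n = 17). Of the adrenal cortex markers, Cyp11a1, Cyp11b1, Cyp11b2, Star, Hsd3b1, Nr5a1 and Mc2r had means of 4.35 to 6.07, below every array median, whereas Cyp21a1, Scarb1 and Fdx1 had means of 6.70, 10.44 and 11.13, above every one, and the mean over the 10 listed genes was 6.34 to 6.71 per tumor. Genes of other tissues stood high in a few tumors. Averaged over 10 genes of skeletal muscle, tumors mad549, mad550 and mad553 reached 9.64, 10.65 and 11.85, whereas no other tumor exceeded 6.91. Averaged over 7 genes of liver, mad559 reached 7.29 and mad562 reached 9.88, whereas no other tumor exceeded 5.60. The average of 12 macrophage genes ran from 8.10 to 9.86. That of 5 adipose genes ran from 6.07 (mad563) to 9.15 (mad548). These are bulk tumors, in which fewer cells of a type and less RNA per cell cannot be told apart.

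Th was the most variable of the 10 genes. Its log2 value was 11.54 at the lowest (mad549), 13.14 at the median and 14.33 at the highest (mad554), a 6.93-fold range, and averaged 13.09 ± 0.73 (SD, n = 17). The SD was larger than that of 97.4% of all genes. Tumors mad549 and mad556, at 11.54 and 11.73, lay apart from the next lowest at 12.67, and mad560 and mad554, at 14.22 and 14.33, lay apart from the next highest at 13.62. Ddc, the next enzyme, was steady by its brightest probe set, with a lowest value of 13.13 (mad565), a median of 13.56, a highest value of 13.82 (mad558) and a mean of 13.55 ± 0.15 (SD, n = 17). Its SD exceeded that of 25.5% of genes, but this holds for the probe set used, since the dimmer Ddc probe set ran from 7.09 to 9.32 with an SD of 0.52 and a correlation of -0.23 with the one used.

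Dbh, the enzyme inside the vesicle, was 9.10 at the lowest (mad565), 9.87 at the median and 10.56 at the highest (mad563), a 2.75-fold range, with a mean of 9.87 ± 0.48 (SD, n = 17). Tumors mad565, mad559, mad550 and mad556 formed the low end, between 9.10 and 9.32, with the rest from 9.55 upward. The other Dbh probe sets followed the one used, with correlations of 0.94 and 0.92 with it. Pnmt, the adrenaline enzyme, was 7.55 at the lowest (mad554), 8.35 at the median and 9.29 at the highest (mad555), and averaged 8.42 ± 0.38 (SD, n = 17). The tumor with the highest Th therefore had the lowest Pnmt by the probe set used, with which the other Pnmt probe sets correlated at 0.79 and 0.21. Over the 17 tumors Th and Pnmt gave r = -0.22, and -0.36 to 0.05 with 1 tumor left out. Gch1, the entry to the cofactor, was 9.26 at the lowest (mad555), 10.35 at the median and 11.12 at the highest (mad565), a 3.63-fold range, with a mean of 10.29 ± 0.49 (SD, n = 17). Its other probe set averaged 9.74 with an SD of 0.52 and a correlation of 0.68 with the one used, so the order of the tumors depends in part on the probe set.

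The vesicle transporters differed in where they lay on the arrays. Slc18a1, the chromaffin type, was 6.45 at the lowest (mad559), 6.97 at the median and 8.28 at the highest (mad554), a 3.54-fold range, with a mean of 7.17 ± 0.53 (SD, n = 17). In 0 of 17 tumors did it reach the top quartile of the probe sets on its array, and the other probe sets of this gene averaged 4.83 and 3.84, close to the bottom of the arrays, with correlations of 0.58 and 0.32 with the one used. Slc18a2, the neuronal type, was 9.48 at the lowest (mad562), 10.21 at the median and 10.77 at the highest (mad554), a 2.45-fold range, with a mean of 10.20 ± 0.36 (SD, n = 17), and was in the top quartile in 17 of 17 tumors. Brightness also depends on the probe, so these quartiles do not rank the amounts of RNA. Cyb561 was 11.92 at the lowest (mad565), 12.31 at the median and 12.86 at the highest (mad561), with a mean of 12.33 ± 0.25 (SD, n = 17).

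Re-uptake and breakdown genes spread little by the probe sets used, and more by others of the same genes. Slc6a2 ran from 6.38 (mad559) through a median of 6.63 to 6.98 (mad554) and averaged 6.65 ± 0.17 (SD, n = 17), in 0 of 17 tumors in the top quartile. Its probe sets disagreed, since the next brightest had an SD of 0.52 and a correlation of -0.01 with the one used, so the place of a tumor for Slc6a2 rests on the probe set used. Maoa ran from 9.999 (mad553) through a median of 10.41 to 10.64 (mad548) and averaged 10.41 ± 0.14 (SD, n = 17) and an SD above that of 16.8% of genes. Its lowest value was that of mad553, the tumor with the highest muscle genes, and the other tumors lay between 10.30 and 10.64. The other Maoa probe set spread more, with an SD of 0.40 and a correlation of 0.35 with the one used.

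**Figure D1:**
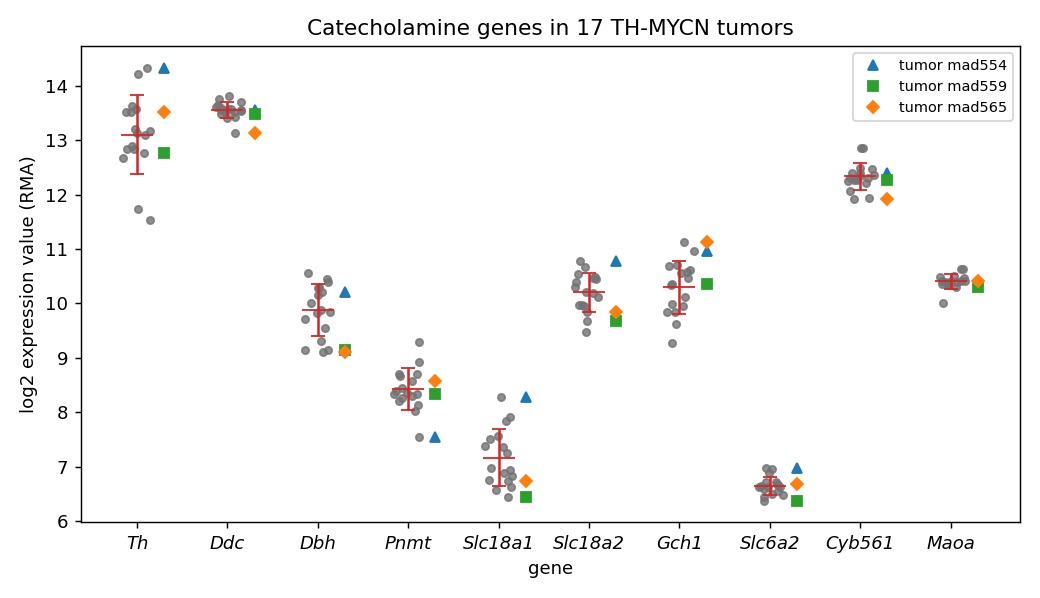
Log2 expression value (RMA) of each of the 10 catecholamine genes in 17 tumors, with 1 grey point per tumor, the mean as a red bar and 1 SD as the error bar, and the values of mad554, mad559 and mad565 repeated as coloured symbols. Th spread from 11.54 to 14.33 whereas Ddc stayed within 13.13 to 13.82, and heights of different genes are not comparable because they also depend on the probe.

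Tumor mad554 stood high for part of the route. It was among the 3 highest tumors for 5 members (Th, Slc18a1, Slc18a2, Gch1 and Slc6a2) and among the 3 lowest for Pnmt. Its Ddc, Cyb561 and Maoa values, at 13.55, 12.39 and 10.41, lay close to the means of 13.55, 12.33 and 10.41. At the low end, mad559 was among the 3 lowest for Dbh, Slc18a1, Slc18a2, Slc6a2 and Maoa. It lay above the mean of the gene for only 1 of the 10 members. Tumor mad562 was also among the 3 lowest for 5 members, and mad562 and mad559 were the tumors with the highest liver genes. The part of liver tissue in these low values was not tested. Tumor mad565 combined the lowest Ddc, Dbh and Cyb561 with the highest Gch1, so its cofactor enzyme and its vesicle genes stood at opposite ends. Tumor mad548 was above the mean for 8 members without extreme values of Th or Dbh. How often each tumor was among the 3 highest or 3 lowest over all genes was not counted. These places are therefore not known to be particular to the route.

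**Figure D2:**
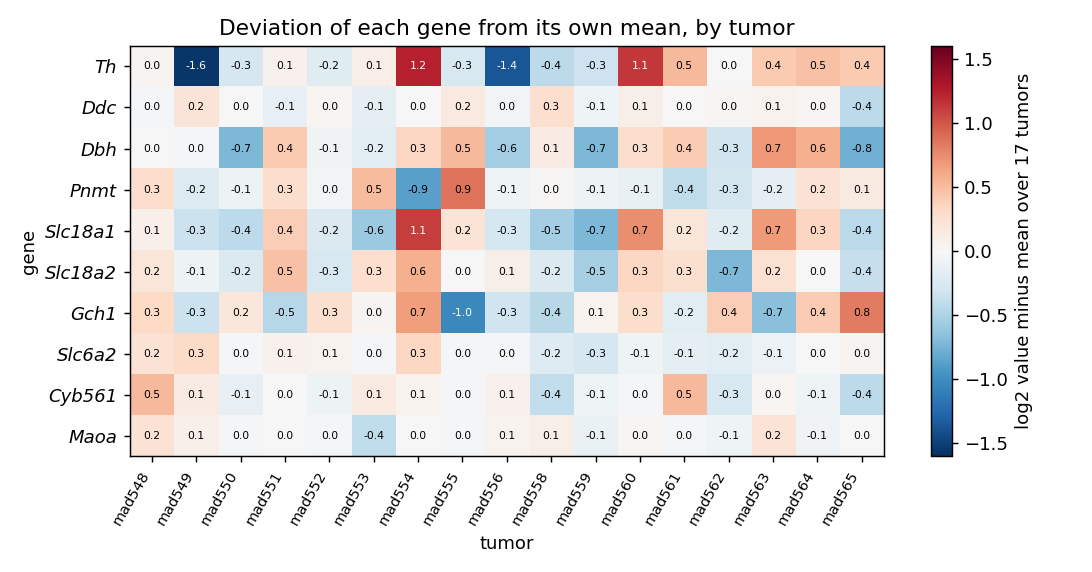
Deviation of each gene from its own mean over the 17 tumors (colour and printed value, log2 units), with genes in rows and tumors in columns. Th, Slc18a1 and Slc18a2 are above their means in mad554 and mad560, while Dbh, Slc18a1 and Slc18a2 are below theirs in mad559 and mad565.

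Whether the steps of the route rise and fall together from tumor to tumor was asked for all 45 pairs of members. In this test each member served in turn as the regressor of a limma fit over the other 18192 genes, and a pair passed where the adjusted p was under 0.05 in both of its fits. None of the 45 pairs passed, while 8 had an unadjusted p under 0.05, of which 7 were positive and 1 was negative. This unadjusted limma p came from 1 fit per pair. It was 0.048 for Th with Gch1 and for Ddc with Dbh, whose permutation p for r was 0.073 and 0.075. Correlations were positive for 28 pairs and negative for 17, with a median r of 0.10. Over all genes, 4.67% to 17.1% had an unadjusted p under 0.05, depending on the member. The share of pairs, 8 of 45, lay slightly above the upper end of that range, and rests in part on those borderline pairs. The median r over all genes with a member ran from -0.07 to 0.17, a range that holds the 0.10 of the pairs. The 10 fits were each adjusted over their own genes and not over each other.

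The 2 closest relations joined vesicle genes by the probe sets used. With the first principal component as covariate, r was higher for Th with Slc18a1 (0.74) than for Dbh with Slc18a1 (0.70). Slc18a1 and Dbh correlated with r = 0.75 (permutation p = 0.0004) and rho = 0.77 (permutation p = 0.00048) over the 17 tumors, and r was 0.69 without mad559 and mad565, the tumors farthest from the Dbh median. In the fit on Slc18a1 the adjusted p for Dbh was 0.027 (limma, Benjamini-Hochberg), but in the fit on Dbh that for Slc18a1 was 0.089, and without mad554 the fit on Slc18a1 gave 0.060. Slc18a1 and Slc18a2 correlated with r = 0.70 (permutation p = 0.0013) and rho = 0.64 (permutation p = 0.0066), with r = 0.58 without mad554 and mad560. Here the adjusted p was 0.0497 in the fit on Slc18a1 and 0.241 in the fit on Slc18a2, and 0.22 in the fit on Slc18a1 without mad554. These were 2 of the 9 other members passing in the fit on Slc18a1, in which 1.58% of all genes passed in the positive direction.

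Among the members Th had its highest correlation with Slc18a1, except that with the mean of all probe sets it was r = 0.66 with Gch1 and r = 0.62 with Slc18a1. By the probe sets used, Th and Slc18a1 gave r = 0.66 (permutation p = 0.0026) and rho = 0.63 (permutation p = 0.0082). The r rose to 0.78 without mad549 and mad556, but fell to 0.56 without mad554 and to 0.60 without mad560. Adjusted p values were 0.170 and 0.065 in the pair of limma fits, and the larger was 0.58 without mad554. For Th, r was 0.40 with Dbh, 0.45 with Gch1, 0.39 with Slc18a2, -0.26 with Ddc and -0.22 with Pnmt, none past the threshold. Differences between these correlations were not tested. Dbh and Slc18a2 gave r = 0.62 (permutation p = 0.0089) and rho = 0.59 (permutation p = 0.015), falling to r = 0.49 without mad559 and mad565. Their adjusted p values were 0.20 and 0.26 in the pair of limma fits. Slc18a2 and Cyb561 gave r = 0.57 (permutation p = 0.013) and rho = 0.71 (permutation p = 0.002), with limma adjusted p values of 0.28 and 0.75.

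The negative pair with an unadjusted p under 0.05 was Ddc with Gch1, at r = -0.51 (permutation p = 0.028) and rho = -0.32 (permutation p = 0.21). It was r = -0.25 without mad558 and mad565, and it changed sign to r = 0.40 when all probe sets of each gene were averaged, so no direction is given for it.

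**Figure D3:**
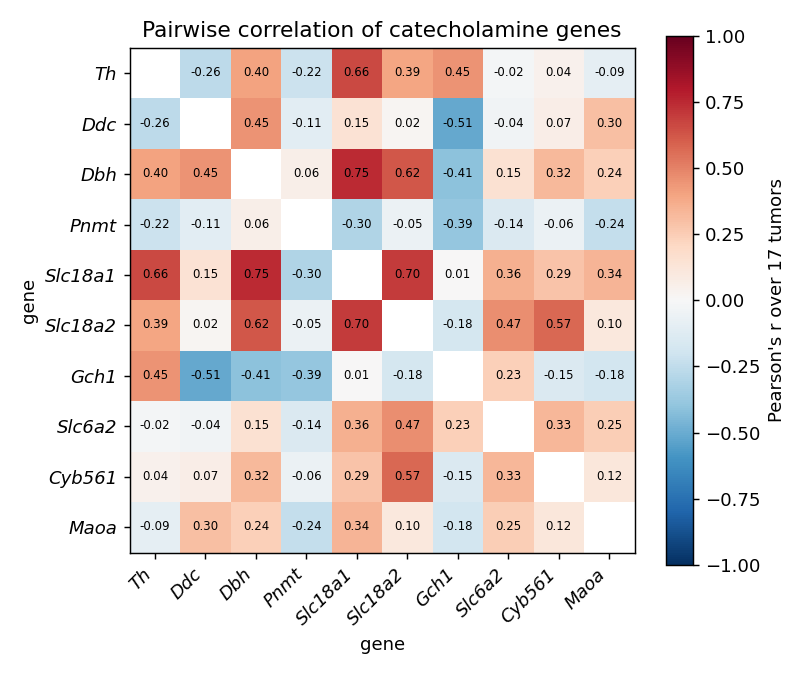
Pearson's r over 17 tumors for each pair of catecholamine genes, as colour and printed value. The block of Dbh, Slc18a1 and Slc18a2 holds r of 0.62 to 0.75, and Pnmt has r between -0.39 and 0.06 with every other member.

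**Figure D4:**
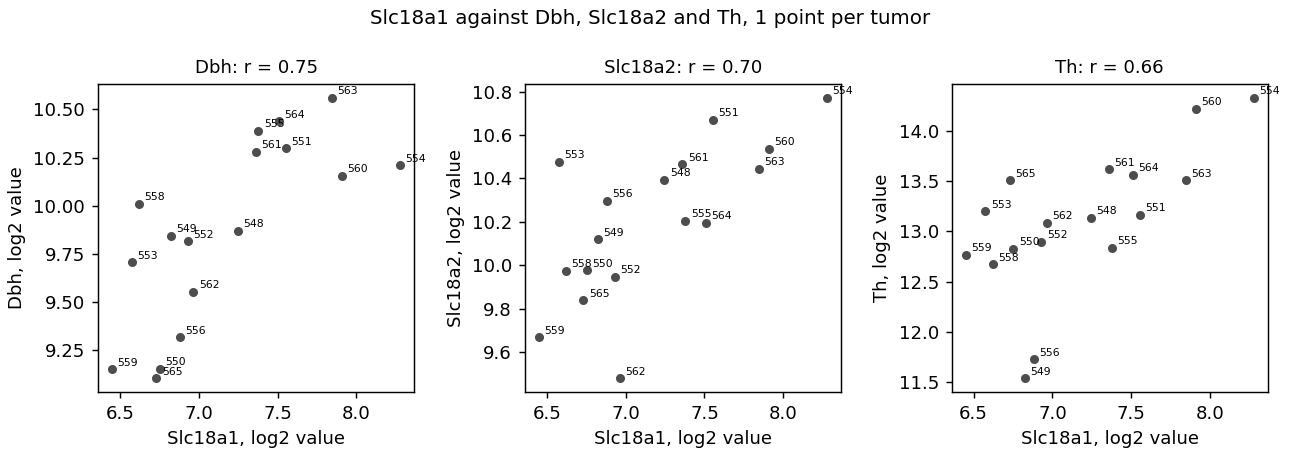
Log2 value of Dbh, Slc18a2 and Th (vertical axes) against that of Slc18a1 (horizontal axes), with 1 point per tumor marked by the digits of its mad number. The tumors of highest Slc18a1, mad554, mad560 and mad563, lie above the means of Dbh (9.87) and Slc18a2 (10.20), and mad549 and mad556 lie low in Th.

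Slc18a1 had more genes passing in its fit than any other member. It lost this rank to Maoa with centred arrays (54 genes against 170), without mad554 (21 against 140) and without mad559 (144 against 163). Slc18a1 also stood below Gch1 with centred arrays (63 genes) and without mad554 (36 genes). Of all genes 287 passed in the positive direction (1.58% of 18192) and 18 in the negative (0.0989%), or 305 in all (1.68%), against 21 in all without mad554, 141 to 431 without any other tumor and 54 with every array centred on its median. The genes most like it were Doc2b, a calcium sensor of vesicle release (r = 0.94, adjusted p = 1.5e-05), Ptprn2, a membrane protein of dense-core vesicles (r = 0.92, adjusted p = 0.0013), and Camk2g, a calcium-dependent kinase subunit (r = 0.90, adjusted p = 0.0019). All 3 passed in each of the 9 alternative settings and without each of the 17 tumors in turn. Ptprn, the sister protein of Ptprn2 in the vesicle membrane, did so as well (r = 0.89, adjusted p = 0.0013, and 0.030 without mad554).

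Some genes of the dense-core vesicle, the organelle that stores catecholamines, rose and fell with Slc18a1. Of 24 measured genes of this list 6 passed, all positive, beside the 1.58% of all genes, and the median r of the list was 0.54, beside 0.17 over all genes. The 6 included Ptprn, Ptprn2 and the granins Scg2 (r = 0.85, adjusted p = 0.0045) and Vgf (r = 0.81, adjusted p = 0.011). The others were the synaptotagmin Syt4 (r = 0.75, adjusted p = 0.028) and the peptide-amidating enzyme Pam (r = 0.73, adjusted p = 0.033). Without mad554 the count was 2 of 24, Ptprn and Ptprn2. Chga, which encodes chromogranin A, had r = 0.67 and an adjusted p of 0.067. The proton pump that powers amine loading had the higher median r, 0.60 over 16 subunits and accessory genes, yet only Atp6v1b2 passed (r = 0.84, adjusted p = 0.010).

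No regulator of the noradrenergic lineage passed with Slc18a1. Of 16 measured genes 0 passed, and their median r was 0.16, beside 0.17 over all genes. In the cofactor list 1 of 8 passed, namely Pcbd1, which recycles tetrahydrobiopterin (r = 0.78, adjusted p = 0.024). Of 14 markers of ganglion-like cells 2 passed, the microtubule gene Map2 (r = 0.78, adjusted p = 0.025) and the neuropeptide gene Npy (r = 0.69, adjusted p = 0.046), and of 21 kinases and partners that act on tyrosine hydroxylase Camk2b did (r = 0.78, adjusted p = 0.029). Of 8 genes of amine breakdown and other uptake and 21 proliferation genes 0 passed, with a median r of 0.16 and -0.19. Of 8 other genes listed for chromaffin cells 0 passed as well, with a median r of 0.28.

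Lists of other cell types held 1 gene that passed with Slc18a1. Of 10 skeletal muscle genes 1 passed, in the negative direction (Myh1, r = -0.69, adjusted p = 0.049), with a median r of -0.42, and the tumors with high muscle genes had Slc18a1 values of 6.83 (mad549), 6.75 (mad550) and 6.57 (mad553), all below the median of 6.97. Without those 3 tumors 175 genes passed in place of 305. Among 12 macrophage, 7 liver, 5 adipose and 10 adrenal cortex genes none passed, with median r of -0.16, -0.18, -0.44 and 0.30. The part of these tissues in the relations of Slc18a1 was not tested beyond the fit with the muscle, liver and macrophage means as covariates, which called 158 genes. Adipose genes were not among those covariates.

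**Figure D5:**
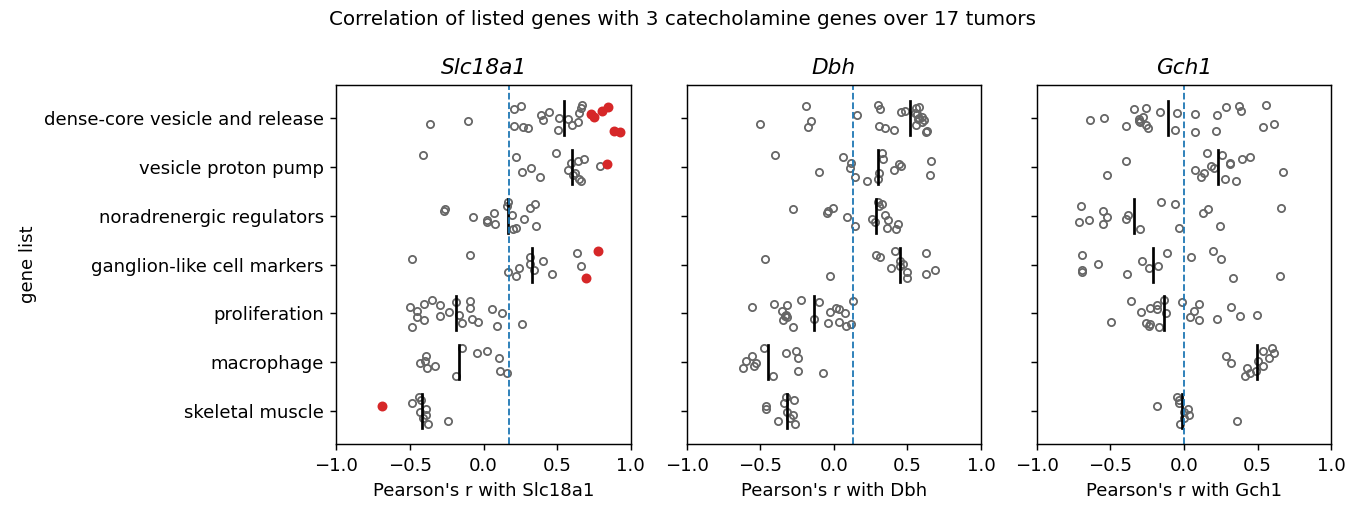
Pearson's r over 17 tumors (horizontal axis) of the listed genes with Slc18a1, Dbh and Gch1, with 1 point per gene, red filled points for an adjusted p under 0.05, black bars for the median of a list and the dashed line for the median of all genes. The red points, all beside Slc18a1, are 6 dense-core vesicle genes, 2 ganglion-like markers, 1 proton pump gene and 1 muscle gene, and all 12 macrophage genes lie right of the line beside Gch1.

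Far fewer genes followed Th. In its fit 9 genes passed in the positive direction (0.0495% of 18192) and 0 in the negative, with 1851 genes at an unadjusted p under 0.05. The gene most like it was Aldh3b1, an aldehyde dehydrogenase (r = 0.86, adjusted p = 0.042), followed by Pld3, a lysosomal nuclease (r = 0.82, adjusted p = 0.042). Ascl2, a basic helix-loop-helix factor (r = 0.82), and Creb3l2, a membrane-bound factor of the secretory pathway (r = 0.81), were also among the 9, with adjusted p of 0.042 each. All 9 lost the threshold without mad554, with adjusted p of 0.196 to 0.278, and when the arrays were centred, with adjusted p of 0.053 to 0.079.

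Among the listed genes only the granins Scg2 (r = 0.80, adjusted p = 0.044) and Vgf (r = 0.81, adjusted p = 0.042) passed with Th, 2 of 24 dense-core vesicle genes. The median r of that list was 0.35, that of the proton pump 0.48 and that of the kinases and partners of tyrosine hydroxylase 0.47, beside 0.04 over all genes. The proliferation list lay on the other side, with a median r of -0.38 and 0 of 21 genes past the threshold. Mki67, the Ki67 marker of cycling cells, had r = -0.59 with an adjusted p of 0.48. The noradrenergic regulators had a median r of -0.04 with Th and 0 of 16 passed, and Ret, the receptor tyrosine kinase, had r = 0.72 with an adjusted p of 0.092.

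Dbh was followed by 20 genes, all positive (0.11%), and none of the other members was among them. The nearest were Ndrg4 (r = 0.87, adjusted p = 0.016), Ahi1, a protein of the cilium base (r = 0.87, adjusted p = 0.016), and Ss18l1, a neuronal chromatin remodelling subunit (r = 0.86, adjusted p = 0.022). Without mad565, mad563 or mad556 the count was 0, 1 and 2, and with the muscle, liver and macrophage means as covariates it was also 0. The dense-core vesicle list had a median r of 0.52 with Dbh and the ganglion-like list 0.45, beside 0.13 over all genes, and 0 of 24 and 0 of 14 passed. The macrophage and adipose lists each had a median r of -0.45, with 0 of 12 and 0 of 5 past the threshold.

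Gch1 was followed by none of the other members. In its fit 32 genes passed in the positive (0.176%) and 54 in the negative direction (0.297%), or 86 in all (0.473%). The nearest were Clta, a clathrin light chain (r = 0.86, adjusted p = 0.043), Lrig1, a brake on receptor tyrosine kinases (r = 0.86, adjusted p = 0.012), and Cebpb, a basic leucine zipper factor (r = 0.83, adjusted p = 0.013). The macrophage genes lay on the positive side of Gch1 in 12 of 12 cases, with a median r of 0.49 beside 0.00 over all genes, though 0 of 12 passed. The complement gene C1qc had r = 0.61 with an adjusted p of 0.18. With the muscle, liver and macrophage means as covariates 0 genes passed with Gch1, and without mad565, its highest tumor, 11 genes passed, with 12 to 114 without any other tumor. The noradrenergic regulators had a median r of -0.34 and 0 of 16 passed, and of the other 7 cofactor genes 0 passed, with a median r of 0.34.

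Maoa was also followed by no other member. In its fit 104 genes passed in the positive (0.572%) and 14 in the negative direction (0.077%), or 118 in all (0.649%). The nearest were Kat7, a histone acetyltransferase (r = 0.90, adjusted p = 0.027), Cfl2, an actin-severing protein (r = 0.90, adjusted p = 0.027), and Hnrnph1, an RNA-binding protein (r = 0.88, adjusted p = 0.021). Without mad553, the tumor of lowest Maoa and highest muscle genes, 0 genes passed, and without any other tumor 27 to 163 did. The median r of the muscle list with Maoa was -0.53, beside 0.17 over all genes, with 0 of 10 past the threshold.

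For Ddc, Pnmt, Slc18a2, Slc6a2 and Cyb561 no gene passed (0% each, limma), while 2079, 849, 2455, 1934 and 1174 genes had an unadjusted p under 0.05. Some of their nearest genes are given as a description. Ddc was closest to Mphosph9 (r = 0.88) and to the sialyltransferase gene St3gal6 (r = 0.86), and Slc18a2 to Rab27a, a small GTPase of secretory granules (r = 0.83), and the zinc transporter Slc39a6 (r = 0.83). Slc6a2 was closest to Dio3os (r = 0.88) and to the neuroglobin gene Ngb (r = 0.86). Cyb561 was closest to Sh2d5 (r = 0.81) and Fads6 (r = 0.80), followed by Phox2a, a homeodomain factor of noradrenergic neurons (r = 0.79), with an adjusted p of 0.26 for each. Pnmt was the member least like any other gene, with a highest r of 0.72 (Bcl2l14) and a smallest adjusted p of 0.989.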

How the data were processed

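Total RNA of 17 TH-MYCN tumors was labelled by the 2-cycle protocol and hybridised to 1 Affymetrix whole-genome mouse array each. The study describes more tumors than these, and no other tumor was analysed here. The deposited log2 values were made by the authors with RMA, which subtracts background, quantile-normalizes probes over arrays and summarises them per probe set. Per the labels, Partek 6.4 was used beside RMA. The study names RMA for the mouse arrays in its results and MAS5 signals in its methods. No further normalization was applied. Quantile normalization reduces overall differences in brightness between tumors, but the array medians still ran from 6.28 to 6.51. The number of arrays limits the precision.

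Of 45101 probe sets 64 were controls, 34945 had a single gene symbol in GEO's platform annotation, 932 had more than 1 and 9160 were unnamed here, which left 18193 genes. For each member a limma fit (lmFit and eBayes, limma 3.58.1, R 4.3.3) was made over the other 18192 genes with the log2 value of the member as regressor, two-sided, with Benjamini-Hochberg adjustment and a threshold of 0.05. Pearson's r and Spearman's rho had two-sided permutation tests with 100000 resamples, and r was repeated after removal of the 2 tumors that lay farthest from the median for the x gene. Fits were checked on simulated data. SciPy 1.17.1, pandas 2.3.3 and Matplotlib 3.10.9 were used under Python 3.11.15.

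The members and gene lists were chosen with earlier results of these data known. Named genes were the members, the 3 genes most correlated with each member (10 for Th) among genes at or above the array median of 6.35, the 2 highest and 2 lowest genes of each list by r with Th, and listed genes passing with Th or Dbh. The other listed genes, such as those passing with Slc18a1, were named after their values had been seen. Nothing in the labels says whether tumors shared a litter or a day, and no scan dates were used here. Alternatives covered the choice of probe sets, dim genes, centring, ranks, covariates and the omission of tumors.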

Additional observations from a re-analysis of the deposited data

How the results depend on the processing

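The number of pairs of catecholamine genes passing stayed at 0 in both directions under all 9 alternative settings, and leaving out each tumor in turn gave 0 to 1 positive pairs, the 1 being Dbh with Slc18a1 without mad558 (r = 0.80, adjusted p = 0.040), and 0 negative pairs. The count of genes following Th was unstable. In the positive direction 9 genes became 4 with the mean of all probe sets, 35 among genes at or above the array median, 0 with centred arrays, 5 on ranks, 44 with the first principal component as covariate, 0 with the muscle, liver and macrophage lists as covariates, 1 without mad549, mad550 and mad553, and 16 without mad562. In the negative direction 0 became 5 among the brighter genes, 7 with the principal component and 2 without mad562. Leaving out 1 tumor gave 0 to 49 positive genes, the 0 without mad550, mad551, mad552, mad554, mad555, mad559, mad560 or mad564, and 0 to 7 negative genes. Of the other members 2 passed with Slc18a1, against 0 with centred arrays and 1 with the mean of all probe sets, on ranks, with either set of covariates or without mad549, mad550 and mad553, and 0 to 3 with 1 tumor left out, the 0 without mad554, mad559 or mad563. Of the dense-core vesicle genes 6 passed with Slc18a1, against 3 on ranks, and 2 to 7 with 1 tumor left out. Over all settings the genes following Slc18a1 numbered 54 to 505 in the alternatives and 21 to 431 with 1 tumor left out, those following Dbh 0 to 108 and 0 to 47, those following Gch1 0 to 106 and 11 to 114, those following Maoa 0 to 170 and 0 to 163, and those following Ddc 0 to 6 and 0 to 12. The correlation of Ddc with Gch1 turned from -0.51 to 0.40 (adjusted p = 0.60) with the mean of all probe sets, and the cause was not tested beyond the Ddc probe sets' own correlation of -0.23. Centring moved the arrays by -0.16 to 0.07 on the log2 scale. Values of Slc18a1 and Slc6a2 lay near the array medians, where background limits what differences can be seen. No paired analysis was possible because the tumors form a single group, measured on 1 array apiece.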

Other observations

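Genes of other transmitters lay low or varied widely. The cholinergic genes Chat, which makes acetylcholine, and Slc18a3, which loads it into vesicles, averaged 4.64 ± 0.18 and 5.27 ± 0.15 (SD, n = 17), both below every array median. Of the 9 measured genes listed as cholinergic 0 passed with Th and 1 passed with Slc18a1. This was Nppc (r = 0.74, adjusted p = 0.033, limma), a natriuretic peptide gene and not one that makes or loads acetylcholine. Among the serotonin genes, the brain-type tryptophan hydroxylase gene Tph2 averaged 7.22 ± 0.86 with a range of 5.87 to 8.84, and the serotonin-gated channel gene Htr3a averaged 10.32 ± 1.03 with a range of 8.52 to 12.09. Neither varied with Th past the threshold, at r = -0.10 (adjusted p = 0.95) for Tph2 and r = -0.08 (adjusted p = 0.96) for Htr3a.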
